A study of Mus musculus with 19 samples.

Results

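The 10 classical MHC class I presentation genes examined here were the heavy chains H2-K1 and H2-D1, the light chain B2m, the peptide transporter subunits Tap1 and Tap2, the loading factor Tapbp, the transactivator Nlrc5 and the immunoproteasome subunits Psmb8, Psmb9 and Psmb10. They were taken by name, as genes of known function, with earlier results of these data known. All 10 were found among the 48795 genes of the table. Expression was measured by RNA sequencing in 19 primary p53/MCA sarcomas, 11 from Rag2-/- mice and 8 from Rag2+/- mice. All 19 tumors were started at 6-10 weeks of age by injecting an adenovirus that carries Cas9 and a guide RNA against p53 into the gastrocnemius muscle, followed by 300 µg of the carcinogen MCA (3-methylcholanthrene), and were harvested without treatment. Rag2-/- mice make no mature T or B cells, whereas their Rag2+/- littermates keep 1 working Rag2 copy and both lineages. Each tumor gave 1 library from whole tissue, so the values mix sarcoma cells with stroma, muscle and leukocytes. The strain of the mice is not given in the sources used here. The comparison asks whether presentation genes were lower in sarcomas that had grown in the presence of T cells.

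MHC class I molecules show fragments of a cell's own proteins to CD8+ T cells at the cell surface. The proteasome cuts the fragments, TAP carries them into the endoplasmic reticulum, tapasin helps load them, and the loaded heavy chain leaves with B2m. Interferon gamma raises most of these genes together, through factors such as IRF1 and NLRC5. Tumors under attack by T cells are known to lose parts of the pathway in some settings, and NK cells recognise cells with little class I.

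On the mouse genome build GRCm38, 7 of the 10 genes lie in the MHC region of chromosome 17. Tapbp spans chr17:33915899-33929292, H2-K1 spans chr17:33996017-34000347 on the minus strand, and H2-D1 spans chr17:35262730-35267499. Between the heavy chains lie Psmb9 (chr17:34181987-34187764, minus strand), Tap1 (chr17:34187553-34197225), Psmb8 (chr17:34197721-34201454) and Tap2 (chr17:34203527-34216321). B2m lies at chr2:122147686-122153083, Nlrc5 at chr8:94434356-94527272 and Psmb10 at chr8:105935735-105938444 on the minus strand. The exons of Tap1 and Psmb9 overlap on opposite strands over 212 bases, and strand use in the counting is not stated, so reads there cannot be assigned to either gene. Antisense or neighbouring gene models also overlap 24.9% of the exonic bases of Tapbp (Gm19412), 14.1% of Tap2 (Gm15821) and 14.7% of Psmb8 (Gm20496). Of windows as long as a read, 1.79% of H2-D1 also occurred in H2-Q1, and 4.70% of H2-K1 and 6.14% of H2-D1 lay within 2 mismatches of other class I genes, so the heavy-chain values carry that uncertainty.

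Promoters are shown because the genes moved together among tumors, as described below. Promoter windows from 250 bases before to 50 bases after the start were taken from RefSeq (GRCm38.p6), which matched 8 of the 10 genes, all but Tap2 and Nlrc5. Capitals mark matches, on either strand, to the interferon-stimulated response element core GAAANNGAAA, the gamma-activated site TTCNNNGAA, the X2 box core TGACGC or the NF-kB letters GGGATTCCC. H2-K1 is at chr17:34000298-34000597 (minus strand), H2-D1 at chr17:35262844-35263143, B2m at chr2:122147437-122147736 and Tap1 at chr17:34187306-34187605, all but H2-K1 on the plus strand.
H2-K1: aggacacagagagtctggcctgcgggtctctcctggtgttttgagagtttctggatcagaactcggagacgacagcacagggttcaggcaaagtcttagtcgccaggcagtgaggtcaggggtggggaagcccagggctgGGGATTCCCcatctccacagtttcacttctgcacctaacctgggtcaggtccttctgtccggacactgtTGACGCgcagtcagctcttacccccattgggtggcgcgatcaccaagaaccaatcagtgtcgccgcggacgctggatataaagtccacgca
H2-D1: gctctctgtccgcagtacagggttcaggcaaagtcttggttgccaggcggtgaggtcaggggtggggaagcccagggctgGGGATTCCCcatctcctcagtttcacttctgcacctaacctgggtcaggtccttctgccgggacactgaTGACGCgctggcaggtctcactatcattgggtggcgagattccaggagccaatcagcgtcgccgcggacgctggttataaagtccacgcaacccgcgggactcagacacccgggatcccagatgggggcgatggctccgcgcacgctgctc
B2m: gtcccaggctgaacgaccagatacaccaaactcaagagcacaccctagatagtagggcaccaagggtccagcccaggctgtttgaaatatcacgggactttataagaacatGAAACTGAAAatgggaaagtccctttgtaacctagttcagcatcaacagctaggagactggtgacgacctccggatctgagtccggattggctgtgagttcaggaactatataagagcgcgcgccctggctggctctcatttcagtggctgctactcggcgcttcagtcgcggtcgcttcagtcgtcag
Tap1: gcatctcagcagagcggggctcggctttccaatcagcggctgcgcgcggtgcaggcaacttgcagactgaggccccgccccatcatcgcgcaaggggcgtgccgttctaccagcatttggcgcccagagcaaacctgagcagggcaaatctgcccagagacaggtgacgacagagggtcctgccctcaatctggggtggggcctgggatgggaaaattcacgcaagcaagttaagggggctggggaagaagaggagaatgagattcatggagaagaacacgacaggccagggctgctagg
Both heavy-chain windows held GGGATTCCC and TGACGC, at 110-102 and 41-36 bases before the start in H2-K1 and at 170-162 and 101-96 bases before it in H2-D1. B2m held GAAACTGAAA at 139-130 bases before the start, and Psmb8 held TTCCCAGAA at 97-89 bases. No match stood in the windows of Tap1, Psmb9, Psmb10 or Tapbp. Only the exact letters were searched, so near matches are not marked. The RefSeq start sites of Tapbp (chr17:33919478), Psmb8 (chr17:34198195) and H2-D1 (chr17:35263094) lie inside the gene spans given above. Their windows do not reach the first bases of those spans, and promoters there were not searched. Of all 32851 promoter windows, 3.44% held the response element core, 8.30% the gamma-activated site, 7.40% the X2 core and 0.353% the NF-kB letters. The start sites of Tap1 and Psmb9 lie 226 bases apart on opposite strands, so their windows share 275 bases (chr17:34187306-34187580), and the Tap1 sequence above also shows most of the Psmb9 window. A match describes letters only.

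Depth was recovered from the steps between low values, at an estimated 24.9 to 33.8 M fragments (M, 10 to the power 6) on genes in 18 tumors and 5.25 M in the Rag2-/- tumor S41. Even the least abundant gene, Nlrc5, rested on an estimated 148 to 3696 fragments per tumor, so all 10 genes were well above the floor of -3.32 on the log2 scale. Values below are log2 of upper-quartile-normalised FPKM plus 0.1. Cd3e, a T cell receptor component, followed the genotype labels: its mean was 1.47 ± 1.17 (SD, n = 8) in Rag2+/- tumors, while every one of the 11 Rag2-/- tumors was at the floor. The Rag2 transcript did not check them, at -0.34 ± 0.74 (SD, n = 11) in Rag2-/- and -1.31 ± 0.70 (SD, n = 8) in Rag2+/- tumors. Which bases the knockout allele lacks is not given in the sources used here.

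A pair of tumors stood apart. S51, a Rag2-/- tumor, had Ifng, the gene for interferon gamma, at 2.43, against -3.32 to -0.50 in the other 10 Rag2-/- tumors (Ifng was named after its values were seen). Its mean over 14 interferon gamma response genes was 7.52, against 3.44 to 4.68 in the other Rag2-/- tumors. Its mean over 12 T cell genes was -1.70, within the Rag2-/- range of -2.17 to -1.21, and its mean over 8 NK cell genes was 2.64, the third highest of the 19 tumors. Its mean over 10 mesenchymal genes was 5.70, the lowest of the 19 tumors, against 7.21 to 7.93 in the other Rag2-/- tumors. Its skeletal muscle list mean of 11.2 was the highest of the Rag2-/- tumors, the next being 9.37, and its neutrophil list mean of 3.10 was the second highest of the 19. The part of these cell types in its class I values was not tested. S56, a Rag2+/- tumor, had the lowest Ptprc, the pan-leukocyte gene, at 3.21, the lowest macrophage list mean, at 4.85, and the highest skeletal muscle list mean, at 12.6. Neither tumor was among the 15 tumors (8 Rag2-/- and 7 Rag2+/-) listed for the study's neoantigen comparison, which also leaves out S41 and S46. The results are therefore given over 19 tumors, over those 15, and over the 17 tumors without S51 and S56, a set chosen after seeing the data.

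None of the 10 genes passed the test between genotypes. Over 19 tumors, 0 of 10 had an adjusted p below 0.05 in limma, with 12826 genes tested and 4 called (0.0312%), all higher in Rag2+/- tumors: Igkc and Igha, Cd2 and Tnfrsf18. All 10 differences were negative, that is lower in Rag2+/- tumors, with a median of -0.30 on the log2 scale. Over all genes tested, the median was -0.06 and 56.2% of genes were lower in Rag2+/- tumors. At an unadjusted p below 0.05, 0 of 10 were lower in Rag2+/- tumors, against 6.74% of all genes tested. In none of the 10 were the genotypes' values separate, which held for 0.0156% of all genes tested. The direction rested on S51 and S56: without them the median difference was -0.02 and 6 of 10 genes were lower, and over the 15 tumors it was 0.07 and 3 of 10 were lower. In whole tissue, fewer cells of a type and less RNA per cell cannot be told apart.

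**Figure D1:**
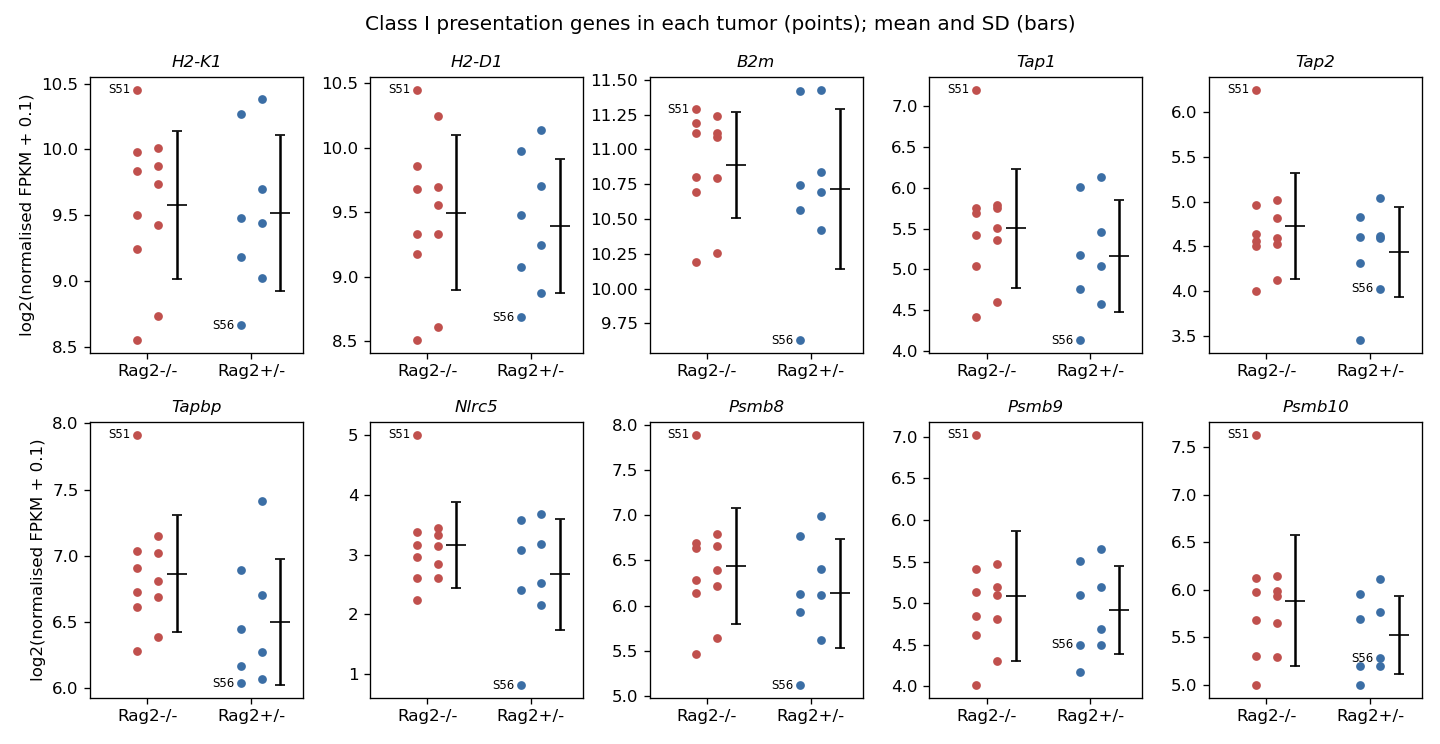
Level of each of the 10 genes, as log2 of normalised FPKM plus 0.1, in the 11 Rag2-/- (red) and 8 Rag2+/- (blue) tumors, with 1 point per tumor and the mean and SD beside them. The genotypes overlap in every panel, S51 is the highest Rag2-/- tumor in all 10, and S56 is the lowest Rag2+/- tumor in 7.

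Per length, the order of the levels was the same in both genotypes. B2m was highest, at 10.89 ± 0.38 (SD, n = 11) in Rag2-/- and 10.72 ± 0.57 (SD, n = 8) in Rag2+/- tumors, or 1895 and 1683 in normalised FPKM. H2-K1 and H2-D1 followed, at 763 and 721 normalised FPKM in Rag2-/- tumors. The neighbours H2-K1 and H2-D1 were close: H2-K1 exceeded H2-D1 by 0.08 ± 0.13 (SD, n = 11) within Rag2-/- tumors, in 10 of 11 of them, and by 0.12 ± 0.12 (SD, n = 8) within Rag2+/- tumors, in 5 of 8. S46, at -0.26, was the exception among Rag2-/- tumors, and over the 15 tumors the Rag2-/- value was 0.13 ± 0.06 (SD, n = 8). Then came Tapbp, Psmb8, Psmb10, Tap1, Psmb9 and Tap2, and each of these exceeded the next in at least 10 of 11 Rag2-/- tumors. In Rag2+/- tumors the gaps between Psmb10 and Tap1 and between Tap1 and Psmb9, of 0.36 ± 0.50 and 0.25 ± 0.32 (SD, n = 8), were smaller than their spread. Nlrc5, the regulator, was lowest, at 8.81 normalised FPKM in Rag2-/- and 6.28 in Rag2+/- tumors.

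The heavy chains present the peptide itself. H2-K1 had a lowest, median and highest value of 8.55, 9.74 and 10.45 in Rag2-/- tumors and of 8.66, 9.46 and 10.38 in Rag2+/- tumors. The ranges nearly coincided, with S48 lowest and S51 highest of the Rag2-/- tumors. The difference was -0.06 (95% interval -0.61 to 0.49), a ratio of 0.959 with limits of 0.655 and 1.40 (limma, adjusted p = 0.898, and two-sided exact permutation p = 0.821 over all 75582 relabelings). H2-D1 ran from 8.51 through 9.56 to 10.45 in Rag2-/- tumors and from 8.69 through 9.36 to 10.14 in Rag2+/- tumors. Its difference was -0.10 (95% interval -0.64 to 0.44, limma, adjusted p = 0.826, exact permutation p = 0.710). Over the 15 tumors the differences of H2-K1 and H2-D1 were 0.25 and 0.24 on the log2 scale, with intervals of -0.30 to 0.81 and -0.27 to 0.75 that cover 0.

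B2m is the light chain without which class I does not reach the surface. It had a lowest, median and highest value of 10.19, 11.09 and 11.29 in Rag2-/- tumors and of 9.63, 10.72 and 11.43 in Rag2+/- tumors. S56 alone lay below the Rag2-/- range, and the next lowest Rag2+/- tumor was at 10.42. The difference was -0.17 (95% interval -0.64 to 0.30, limma, adjusted p = 0.649, exact permutation p = 0.450), 0.02 without S51 and S56, and -0.71 after quantile normalization (95% interval -1.47 to 0.06). No tumor of either genotype lacked H2-K1, H2-D1 or B2m: their lowest values were 8.55, 8.51 and 9.63, and every tumor held at least an estimated 8245, 8377 and 8047 fragments of them. RNA levels do not show whether the protein reached the surface, and loss in a minority of cells would not appear as absence in whole tissue.

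TAP and tapasin supply and load the peptide. Tap1 had a lowest, median and highest value of 4.42, 5.504 and 7.20 in Rag2-/- tumors and of 4.14, 5.11 and 6.13 in Rag2+/- tumors. Without S51 the highest Rag2-/- value was 5.79, below the highest Rag2+/- value. The difference was -0.34 (95% interval -0.999 to 0.32, limma, adjusted p = 0.515, exact permutation p = 0.325), -0.02 without S51 and S56 and 0.05 over the 15 tumors. Tap2 ran from 4.0 through 4.60 to 6.25 and from 3.46 through 4.60 to 5.04, with nearly equal medians and a difference of -0.29 (95% interval -0.81 to 0.23, limma, adjusted p = 0.482). It was -0.14 without S51, -0.15 without S53, -0.08 without S51 and S56 and -0.02 over the 15 tumors.

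Tapbp, which encodes tapasin, had the lowest p of the 10. It ran from 6.28 through 6.81 to 7.91 in Rag2-/- tumors and from 6.04 through 6.36 to 7.42 in Rag2+/- tumors. Of the 8 Rag2+/- tumors, 4 lay below every Rag2-/- tumor, while S55, at 7.42, lay above every Rag2-/- tumor but S51. The difference was -0.36 (95% interval -0.80 to 0.07, limma, unadjusted p = 0.0942, adjusted p = 0.345, exact permutation p = 0.102), -0.19 without S51 and S56 and -0.11 over the 15 tumors.

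Nlrc5 is the transactivator of class I promoters. It had a lowest, median and highest value of 2.23, 3.14 and 5.01 in Rag2-/- tumors and of 0.81, 2.80 and 3.68 in Rag2+/- tumors. S51 held the upper end and S56 the lower, with the next values at 3.44 and 2.15. Of the 10 genes it had the widest SD in Rag2+/- tumors, at 0.93, which was 0.59 without S56. The difference of -0.48 was the largest of the 10 (95% interval -1.23 to 0.27, a ratio of 0.716, limma, adjusted p = 0.435, exact permutation p = 0.236), and was -0.03 without S51 and S56 and 0.04 over the 15 tumors.

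The immunoproteasome subunits replace standard catalytic subunits and shift which peptides are cut. Psmb8 had a lowest, median and highest value of 5.46, 6.40 and 7.89 in Rag2-/- tumors and of 5.12, 6.13 and 6.99 in Rag2+/- tumors, a difference of -0.30 (95% interval -0.88 to 0.28, limma, adjusted p = 0.517). Psmb9 ran from 4.02 through 5.10 to 7.03 and from 4.17 through 4.89 to 5.65, a difference of -0.17 (95% interval -0.81 to 0.46, limma, adjusted p = 0.736). In neither gene did the Rag2+/- range leave the Rag2-/- range by more than 1 tumor. Psmb10 ran from 5.0 through 5.93 to 7.63 and from 5.0 through 5.49 to 6.11, a difference of -0.36 (95% interval -0.91 to 0.19, limma, adjusted p = 0.428). Here 3 Rag2-/- tumors lay above every Rag2+/- tumor: S51 at 7.63, S41 at 6.143 and S47 at 6.128. The highest Rag2+/- tumor, S59, was at 6.112. Without S51 and S56 the differences of Psmb8, Psmb9 and Psmb10 were -0.01, 0.08 and -0.15.

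**Figure D2:**
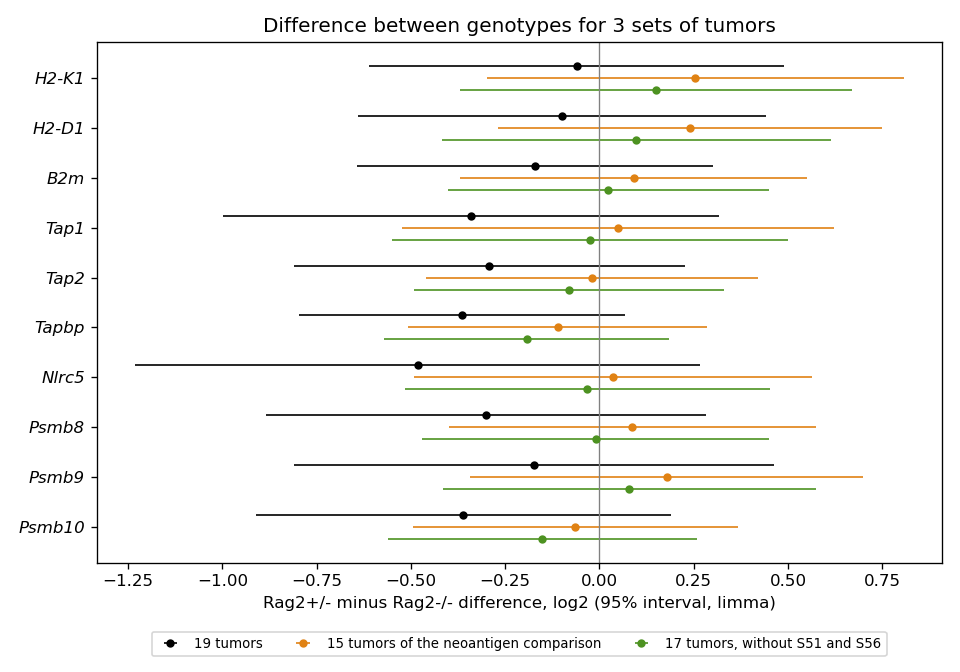
Difference between Rag2+/- and Rag2-/- tumors for each gene on the log2 scale (points) with its 95% interval from limma (bars), over 19 tumors, the 15 tumors of the neoantigen comparison and the 17 tumors without S51 and S56. All 10 black points lie below 0, 7 of the 10 orange points lie above it, and every interval covers 0.

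Within a tumor, the ratios of immunoproteasome to standard subunits spread more widely among Rag2+/- tumors. These ratios were chosen after the values were seen and are given without a test. Psmb8, Psmb9 and Psmb10 themselves had SDs of 0.64, 0.78 and 0.69 in Rag2-/- tumors (0.45, 0.47 and 0.40 without S51). In Rag2+/- tumors their SDs were 0.60, 0.53 and 0.41. The standard subunits Psmb5, Psmb6 and Psmb7 had SDs of 0.47, 0.35 and 0.49 in Rag2-/- and 0.58, 0.47 and 0.65 in Rag2+/- tumors. Psmb8 minus Psmb5, the subunit it replaces, was -0.31 ± 0.34 (SD, n = 11) in Rag2-/- and -0.81 ± 1.005 (SD, n = 8) in Rag2+/- tumors, a span of -2.57 to 0.62 in the latter. Psmb9 minus Psmb6 was -2.10 ± 0.49 (SD, n = 11) and -2.50 ± 0.72 (SD, n = 8). Psmb10 minus Psmb7 was -0.96 ± 0.33 (SD, n = 11) and -1.78 ± 0.74 (SD, n = 8), and 6 of 8 Rag2+/- tumors lay below every Rag2-/- tumor. Between genotypes, Psmb10 itself differed by -0.36 and Psmb7 by 0.46. Over the 15 tumors the differences between genotypes in these ratios were -0.16, -0.05 and -0.52. The lowest Psmb10 to Psmb7 ratios, -2.92 in S56, -2.51 in S60 and -1.97 in S59, were in tumors with skeletal muscle list means of 12.6, 11.4 and 11.6, against 3.85 to 11.2 in Rag2-/- tumors. Other tumors departed from that pairing: S51 had a ratio of -0.56 at a muscle mean of 11.2, S52 had -1.56 at 11.4, and S54 had -1.91 at 8.91. The part of muscle in the ratios was not tested.

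**Figure D3:**
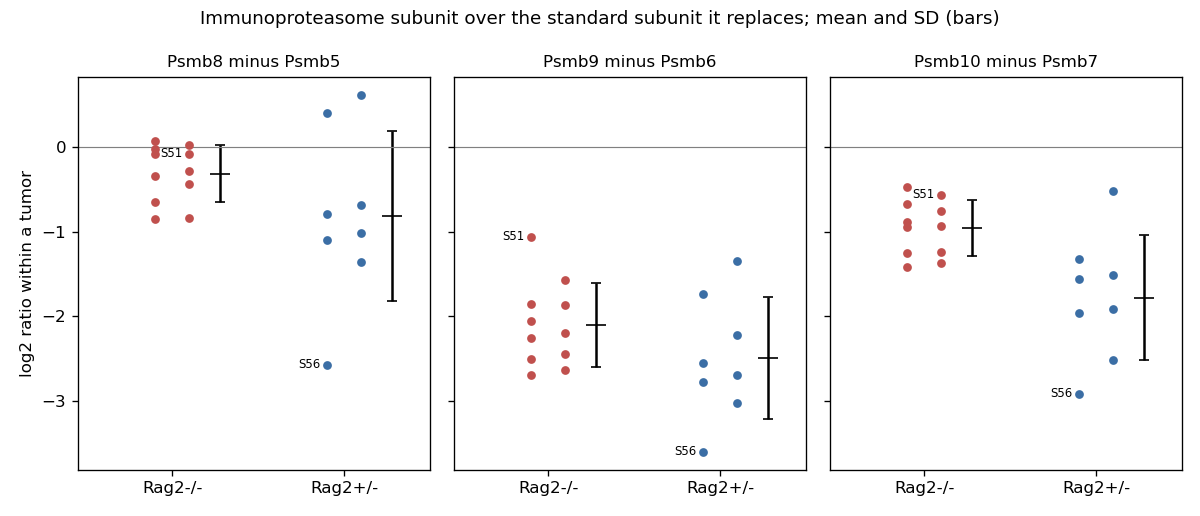
Log2 ratio of each immunoproteasome subunit to the standard subunit it replaces, within each Rag2-/- (red) and Rag2+/- (blue) tumor, with mean and SD beside the points. For Psmb10 minus Psmb7, 6 of 8 Rag2+/- tumors sit below the lowest Rag2-/- tumor at -1.42, and S55 sits at -0.52.

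The spread among tumors of a genotype exceeded the difference between genotypes. The mean of the 10 genes was 6.76 ± 0.59 (SD, n = 11) in Rag2-/- tumors, where it ranged from 5.97 to 8.11, and 6.50 ± 0.54 (SD, n = 8) among the Rag2+/- tumors, where it ranged from 5.69 to 7.19. S51 was highest of all 19 tumors in 9 of the 10 genes, and in B2m it was highest of the Rag2-/- tumors. Its excess over the mean of the other 10 Rag2-/- tumors was 4.39-fold for Psmb9, 4.10-fold for Nlrc5, 3.79-fold for Psmb10 and 3.64-fold for Tap1. It was smaller for the abundant chains, at 1.95-fold for H2-K1, 2.07-fold for H2-D1 and 1.36-fold for B2m. S51 also had the highest mean of the 19 tumors over 7 proteasome partners, which include the standard subunits, at 7.58. The other Rag2-/- tumors ran from 6.06 to 6.60. Its Psmb8 to Psmb5 and Psmb10 to Psmb7 log2 ratios, -0.08 and -0.56, were below the highest other Rag2-/- values, 0.08 and -0.47. Its Psmb9 to Psmb6 log2 ratio, -1.06, was above the highest other, -1.57. In S56, Nlrc5 was lower than the mean of the other Rag2+/- tumors by a log2 difference of -2.12, B2m by -1.24 and Psmb10 by -0.28. S48 and S50 were each the lowest Rag2-/- tumor in 5 genes, and of the Rag2+/- tumors S58 was highest in 7 genes and S55 in 2.

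The 10 genes varied together from tumor to tumor in both genotypes. Given as a description over tumors that share 1 library each, the median Pearson r over the 45 pairs of genes was 0.91 in Rag2-/- tumors and 0.84 in Rag2+/- tumors. Without S51 it was 0.92, and without S56 it was 0.84. The least alike pair was B2m and Nlrc5 in Rag2-/- tumors (r = 0.69) and B2m and Psmb10 in Rag2+/- tumors (r = 0.46).

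**Figure D4:**
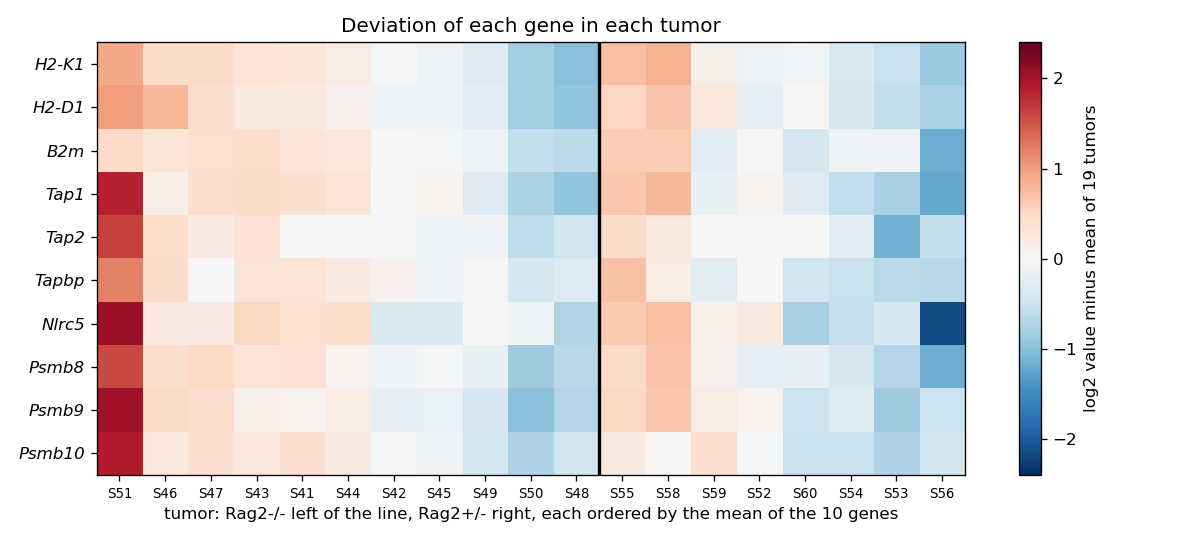
Log2 value of each gene minus its mean over 19 tumors (colour), with tumors in columns, Rag2-/- left and Rag2+/- right of the line. Columns are coloured alike from top to bottom, with S51 high, S48, S50, S53 and S56 low, and S56 lowest in Nlrc5.

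Each gene was then set against 6 measures within each genotype, 118 relations in all, with permutation p-values adjusted over the 118. Of these, 110 were positive and 80 had an adjusted p below 0.05 for Pearson's r. All other genes were not tested in this way, so beside each measure stands the share of all genes tested with r of at least 0.7, a size chosen after seeing the data, and the same count for the 10 genes, as a description with no test. Against the T cell list mean in Rag2+/- tumors, 10 of 10 genes passed by r and 9 of 10, all but B2m, by rho, with r from 0.79 to 0.94 and rho from 0.69 to 0.98 (exact permutation over 8 tumors, adjusted p from 0.00293 to 0.0212 for r and 0.00841 to 0.0975 for rho). An r of at least 0.7 was reached by 10 of 10 and by 5.53% of all genes. Tap1 was an example, at r = 0.94 and rho = 0.95. Other lymphocyte lists were ordered much as the T cell list was: the 4 tumors highest in T cell genes, S55, S58, S59 and S52, had NK cell list means of 1.44 to 2.06 and B and plasma cell list means of 0.92 to 1.59, against -1.17 to 0.75 and -0.61 to 0.61 in the other 4, and their part in the relation was not tested. Without S56 and S53, whose list means lay farthest from the median, r ran from 0.77 to 0.96 over 6 tumors, and 0 of 10 passed. In Rag2-/- tumors, where the list mean was -2.17 to -1.21, r ran from 0.24 to 0.71 and rho from 0.26 to 0.45 (permutation, adjusted p from 0.0245 to 0.486 for r and 0.219 to 0.509 for rho), and 3 of 10, H2-K1, H2-D1 and B2m, passed by r and 0 by rho. An r of at least 0.7 was reached by 1 of 10 and by 1.41% of all genes. Without S48 and S50, r ran from -0.43 to 0.12, so it rested on those tumors. The difference in r between genotypes was not tested.

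The interferon gamma response list, which holds none of the 10 genes, gave r from 0.60 to 0.94 and rho from 0.72 to 0.93 in Rag2-/- tumors, and r from 0.65 to 0.92 and rho from 0.50 to 0.90 in Rag2+/- tumors. By Pearson's r, 9 of 10 genes passed in each genotype and B2m did not (permutation, adjusted p = 0.0769 and 0.0964). By Spearman's rho, 10 of 10 passed in Rag2-/- tumors and 4 of 10 in Rag2+/- tumors (permutation, adjusted p up to 0.0323 and 0.274). An r of at least 0.7 was reached by 9 of 10 in each genotype, against 17.1% of all genes in Rag2-/- and 3.73% in Rag2+/- tumors. Without S51 and S48, r in Rag2-/- tumors ran from 0.53 to 0.87, and without S55 and S53, r in Rag2+/- tumors ran from 0.65 to 0.88. Nlrc5 went with 9 of 9 other genes in Rag2-/- tumors (r from 0.69 to 0.91, rho from 0.73 to 0.86) and with 7 of 9 in Rag2+/- tumors (r from 0.60 to 0.94, rho from 0.60 to 0.93). An r of at least 0.7 was reached by 8 of 9 and 7 of 9, against 12.8% and 9.92% of all genes. Its permutation p, adjusted, ran from 0.00527 to 0.0257 for r and from 0.00841 to 0.0305 for rho in Rag2-/- tumors, and up to 0.146 and 0.177 in Rag2+/- tumors. Without S51 and S48, r ran from 0.52 to 0.68 in Rag2-/- tumors, and without S56 and S58 from 0.55 to 0.88 in Rag2+/- tumors. Irf1, an interferon-induced activator of class I genes, gave a median r of 0.88 and rho of 0.71 in Rag2-/- tumors and a median r and rho of 0.86 in Rag2+/- tumors. Its r passed for 9 and 8 of 10 genes (permutation, adjusted p from 0.00293 to 0.141 and from 0.00293 to 0.0819), its rho passed for 6 and 8 of 10 (adjusted p up to 0.0992 and 0.0721), and r ran from 0.52 to 0.74 without S51 and S50 and from 0.73 to 0.94 without S53 and S58. An r of at least 0.7 was reached by 7 and 8 of 10, against 16.4% and 3.07% of all genes.

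Ptprc passed for 9 of 10 genes in Rag2-/- tumors (r from 0.60 to 0.89, rho from 0.61 to 0.93, permutation, adjusted p for r from 0.00398 to 0.0598) and for 7 of 10 in Rag2+/- tumors (r from 0.56 to 0.95, rho from 0.62 to 0.90, exact permutation, adjusted p for r from 0.00536 to 0.174). By rho, 9 and 4 of 10 passed (permutation, adjusted p up to 0.0829 and 0.156). Without S50 and S48, r ran from 0.50 to 0.77, and without S56 and S55 from 0.40 to 0.88. An r of at least 0.7 was reached by 9 and 7 of 10, against 5.58% and 9.79% of all genes. The skeletal muscle list passed for none in either genotype, and 0 of 10 reached an r of 0.7, against 8.61% and 24.8% of all genes. Its r ran from 0.36 to 0.64 in Rag2-/- tumors, with rho from -0.04 to 0.26, and from -0.67 to -0.28 there without S51 and S48. In Rag2+/- tumors its r ran from -0.69 to 0.18 and its rho from -0.69 to 0.31, and r ran from -0.81 to -0.16 without S53 and S58. With 2 tumors left out, 0 of the 118 relations had an adjusted p below 0.05 and 43 had an unadjusted permutation p below 0.05, over 9 or 6 tumors, where 6 tumors allow no p below 0.00139. Leukocytes carry much class I RNA themselves, and the share of each gene's RNA that came from sarcoma cells was not tested.

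**Figure D5:**
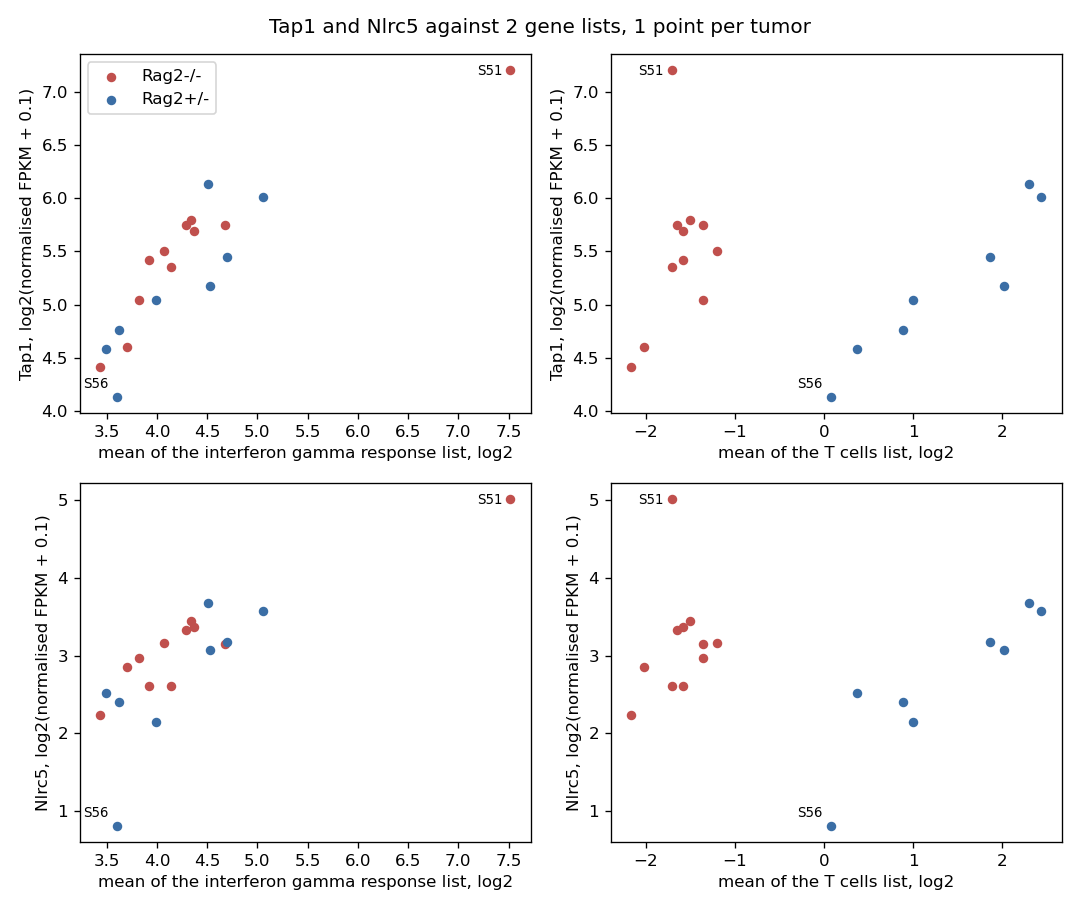
Tap1 (top) and Nlrc5 (bottom), as log2 of normalised FPKM plus 0.1, against the mean log2 value of the interferon gamma response list (left) and of the T cell list (right), 1 point per tumor, Rag2-/- red and Rag2+/- blue. S51 lies far to the upper right on the left and at a T cell list mean of -1.70 on the right, and Rag2+/- points climb from S56 at 0.07 to S55 at 2.44 on the T cell axis.

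The rest of the pathway did not pass the test in either direction. Of 8 peptide loading and trimming genes, 0 were called and 7 were lower in Rag2+/- tumors, with a median of -0.27: the chaperones Pdia3 (-0.49), Canx (-0.35) and Hspa5 (-0.31) and the tapasin relative Tapbpl (-0.27) had the largest differences. Of 7 proteasome partners, 0 were called, with a median of 0.17, or 0.30 without S51. The standard subunits Psmb7 and Psmb6 differed by 0.46 and 0.22, whereas the interferon-inducible proteasome activators Psme1 and Psme2 differed by -0.36 and -0.33. Of 15 regulators, 0 were called, with a median of -0.16, or -0.09 without S51. The largest differences were those of Stat2 (-0.76), which acts in type I interferon signalling, of Rfx5 (-0.51), which binds class I and class II promoters, of Irf1 (-0.38) and of the receptor chain Ifngr1 (-0.36). Rfx5 and Stat2 had an unadjusted p of 0.00213 and 0.0101 in limma, and Ifngr2, the other interferon gamma receptor chain, at a difference of 0.31, had 0.0134, with adjusted p = 0.301 for all 3 (Ifngr2 was named after its values were seen). At an unadjusted p below 0.05, 2 of 15 regulators were lower and 1 higher in Rag2+/- tumors, against 6.74% and 9.56% of all genes tested. Of 14 interferon gamma response genes, 13 were tested and 0 called, with a median of -0.27 over those tested and -0.21 over all 14. That direction rested on S51: without it, chosen after seeing the data, the medians were 0.06 and 0.07, and the list mean was 4.08 ± 0.37 (SD, n = 10) in Rag2-/- tumors against 4.19 ± 0.59 (SD, n = 8) in Rag2+/- tumors. Over all 19 tumors the largest differences were those of Cxcl10 (-0.92) and Gbp3 (-0.65).

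Markers of other cell types were counted in the same way, and in these lists the called genes were Cd2 and Igkc. Over 12 T cell genes the list mean was -2.17 to -1.21 in Rag2-/- and 0.07 to 2.44 in Rag2+/- tumors; 4 were tested and Cd2 was called higher in Rag2+/- tumors (2.47), with Cd3e and Cd3g at differences of 4.80 and 4.59 but too low on average to be tested. Of 7 B and plasma cell genes, 2 were tested and Igkc was called (9.73), with Jchain at a difference of 7.30 but not tested. Of the 7, 5 were higher and 2 lower in Rag2+/- tumors, the latter Cd79b (-0.10, tested) and Pax5 (-0.61, not tested). The 8 NK cell genes had list means of 0.74 to 2.74 in Rag2-/- and -1.17 to 2.06 in Rag2+/- tumors, and 0 of 7 tested were called, with Gzma and Prf1 at -1.96 and -1.93. Macrophage list means were 6.07 to 7.68 and 4.85 to 6.65, with 0 of 10 called and Fcgr1 and Mrc1 at -0.71 and -0.59. The 12 skeletal muscle genes had list means of 3.85 to 11.2 and 5.99 to 12.6, with 0 called and Acta1 and Ckm at 2.42 and 2.36. No gene was called among 5 dendritic cell (Batf3 -0.63, Cd209a 0.63), 5 neutrophil (S100a9 -0.996, Cxcr2 -0.99), 6 endothelial (Vwf 0.65, Pecam1 0.46) or 10 mesenchymal genes tested (Twist1 -0.83, Pdgfra -0.77). At an unadjusted p below 0.05 in limma, 4 of 4 tested T cell genes, 1 of 2 B and plasma cell genes, 8 of 12 skeletal muscle genes and 1 of 6 endothelial genes were higher in Rag2+/- tumors, against 9.56% of all genes tested. At the same level 4 of 7 NK cell genes, 1 of 10 macrophage genes and 1 of 10 mesenchymal genes were lower, against the 6.74% given above.

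With Ptprc as a covariate, the median difference of the 10 genes was 0.01 and 4 of 10 were lower in Rag2+/- tumors, with 0 called. With the mean of the skeletal muscle genes in its place it was -0.41 and all 10 were lower, also with 0 called. The values of the marker lists stand beside the class I results as measured, and their part in those results was otherwise not tested.

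The other genes tested were ranked by how closely they followed the 10. Likeness was Pearson's r with the mean of the 10 genes over 19 tumors, after centring every gene within genotype, and is a description. The nonclassical class I genes H2-T22 (0.96) and H2-T23 (0.95) were among the first 10, and as relatives of the heavy chains they may share reads with them. The others given here were Parp14 (0.95), Serpinb9 (0.95), Ifi47 (0.94), Slfn2 (0.93), Ccdc88b (0.92), Zbp1 (0.92) and Psme1 (0.92). Without S51 these values were 0.96 for H2-T22, 0.91 for H2-T23, 0.93 for Parp14 and Serpinb9, and 0.88 for Ccdc88b and Psme1.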

How the data were processed

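RNA of 19 tumors was sequenced as 150-base paired-end reads after NEBNext Ultra II library preparation. The authors deposited log2 values of upper-quartile-normalised FPKM plus 0.1 per gene, after, per the methods for neoantigen expression, alignment to mouse genome B38 and quantification on Ensembl R86 models in Array Studio. The submitters' processing notes instead list Trimmomatic 0.36, STAR 5.5.4b and HTSeq with mm10, without roles. No counts were used. Depth was estimated from steps between low values (a value counted as whole within 0.05 fragments) and covers counting error only.

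Tumors were grouped by labelled genotype. Genes with a mean above 0 were fitted in limma 3.58.1 (R 4.3.3, trend) with genotype alone, with Benjamini-Hochberg adjustment over all genes tested, 95% intervals and a threshold of 0.05. Single genes also had exact permutation tests over all relabelings (unadjusted), and relations used all permutations for 8 tumors and 100000 for 11. The limma step was tested on simulated data. Alternatives were the 15 tumors of the neoantigen comparison, leaving out each tumor, other pseudocounts, filters, scalings and variance settings, and 2 covariates. Leaving out S51 and S56 together, and counting relations with r of at least 0.7 over all genes (the measure's own genes left out), were added after seeing the data.

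The 10 genes and all lists were chosen with earlier results of these data known. Besides the 10, the text names called genes and those with the largest differences (4 per pathway list, 2 per marker list), Rag2, Cd3e and the 10 genes most alike, of which 1 is not reported here. Ifng, Ifngr2, Ptprc, Cd79b, Pax5 and the standard subunits Psmb5, Psmb6 and Psmb7, in ratios and SDs, stand outside that rule. Each library is titled with its own number, and the labels give no litter or batch.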

Additional observations from a re-analysis of the deposited data

Results flagged for a closer look

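In 30 sets of 8 Rag2+/- values (the 10 genes, 7 ratios within a tumor and 13 gene lists), 2 held a tumor whose gap to its nearest neighbour exceeded 0.526 of the range, Dixon's 95% limit for 8 values. Chance flags about 1 set in 20. Both were S56: its macrophage list mean of 4.85 was far below the other Rag2+/- tumors (gap 0.676 of the range), and its endothelium list mean of 4.31 was far above them (gap 0.545 of the range). None of the 10 class I genes was flagged in Rag2+/- tumors by this limit. Groups of 11 are outside the range of the limit, so S51 was not tested among Rag2-/- tumors.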

How the results depend on the processing

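No class I gene was called in any of 31 alternatives, and the lowest adjusted p over all of them was 0.189. The direction was less stable. The median difference of -0.30 ranged from -0.39 to -0.15 when 1 tumor was left out, and was 0.07 over the 15 tumors of the neoantigen comparison, 0.01 with Ptprc as a covariate and -0.02 without S51 and S56. It moved the other way, to -0.40 after quantile normalization and -0.41 with the muscle covariate. Quantile normalization gave B2m -0.71, H2-K1 -0.23, H2-D1 -0.25, and Tapbp -0.52 and Psmb10 -0.47 with an unadjusted p of 0.0180 and 0.0452 (limma). After it, 2 of the 10 and 2156 of all 12826 genes tested had an unadjusted p below 0.05. The muscle covariate gave Psmb9 -0.39, Tap2 -0.51 and Psmb10 -0.59, the last with an unadjusted p of 0.0444 (limma). With it, 1 of the 10 and 516 of all 12826 genes tested had an unadjusted p below 0.05. Without S55, Tapbp was at -0.49 with an unadjusted p of 0.0187 (limma). An unadjusted p below 0.05 then held for 1 of the 10 and for 2891 of all 12816 genes tested. All 10 genes were lower in Rag2+/- tumors in 26 of 32 fits, the first included. These fits were not independent: the filters and variance settings cannot change a difference in means, and 19 fits left out 1 tumor each. Over the 15 tumors the sign turned for H2-K1 (0.25), H2-D1 (0.24), B2m (0.091), Tap1 (0.049), Nlrc5 (0.037), Psmb8 (0.086) and Psmb9 (0.18). With Ptprc as a covariate it turned for H2-K1 (0.24), H2-D1 (0.18), B2m (0.092), Tap1 (0.011), Psmb8 (0.019) and Psmb9 (0.11). Without S51 and S56 it turned for H2-K1 (0.15), H2-D1 (0.10), B2m (0.024) and Psmb9 (0.080). With 1 tumor left out, differences ranged from -0.18 to 0.061 for H2-K1 (above 0 without S51, S53 or S56), from -0.20 to 0.0024 for H2-D1 (above 0 without S56) and from -0.28 to 0.021 for Psmb9 (above 0 without S51). The cause was not tested.

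The count of all genes called, 4, was 15 over the 15 tumors (9 higher and 6 lower in Rag2+/- tumors, where the 4 were all higher), 26 without the filter on low values, 0 above a mean of 2 (limma, 1676 at an unadjusted p below 0.05), 2 with the muscle covariate, 7 with Ptprc as a covariate, 10 without S51 and S56 (8 higher and 2 lower), and 3 to 7 with 1 tumor left out. The relations with an adjusted p below 0.05, 80 of 118, fell to 0 with 2 tumors left out, over fewer tumors.

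With 11 and 8 tumors, the 95% interval of Nlrc5 reached a ratio of 0.426 and that of H2-K1 0.655, so differences of that size lay within the intervals over 19 tumors. Values are relative to each library's upper quartile. S41, at an estimated 5.25 M fragments, was the shallowest library, and without it the median difference was -0.29.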
